A study of Homo sapiens with 4 samples.

Results

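The 3′ end of a protein-coding gene is the last base of its annotated transcript unit, where the pre-mRNA is cleaved and polyadenylated. H3.3 intervals were collected at these ends, as those lying within 1 kb of the annotated 3′ end of a GENCODE protein-coding gene and more than 2 kb from any annotated transcription start site (TSS). The list without UV held 2146 such intervals among 88806 distinct intervals (2.42%) on chromosomes 1 to 22 and X, and the UV list held 2022 among 77173 (2.62%). They are called 3′ end intervals here. An interval is a stretch that the authors' peak caller marked as enriched in H3.3 reads, and its summit is the base with the strongest enrichment.

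The study mapped H3.3 by chromatin immunoprecipitation and sequencing in MRC5_VA, human fetal lung fibroblasts immortalized with SV40. The labels name them MRC5_WT, the wild type, in both conditions. No UV cells were left untreated, and UV cells were fixed 3 h after a UV-C dose of 10 J/m2. DNA of 3 replicates was pooled before sequencing, so each condition has 1 library. Differences between the lists therefore could not be checked against replicates and were not tested. Intervals in brackets are exact Clopper-Pearson 95% intervals, or their equivalent for a ratio of counts, and cover counting error only. Exceptions are the difference in downstream share and the ratio of median gene lengths. Their intervals combine the widths of the 95% intervals of both lists, and for gene length these are intervals of the medians. The input libraries were not analysed here. Strength is the −log10 q of the strongest summit, which depends on the depth of each library, so strengths of the lists are given side by side and no difference between them was read as a change in H3.3. No interval of either list had a strength under 1.30. Of 10 fibroblast marker genes, 8 had an interval within 1 kb of a TSS in each list, as did 4 of 7 epithelial, 0 of 5 leukocyte and 0 of 4 endothelial markers. The epithelial markers with an interval were *CDH1*, *CLDN4*, *ELF3* and *KRT8*.

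H3.3 is the histone H3 variant that is placed on DNA outside replication, by the HIRA complex at transcribed genes and regulatory elements and by DAXX and ATRX at heterochromatin and telomeres. It replaces H3 where nucleosomes are lost during transcription. At a 3′ end, RNA polymerase II reads past the polyadenylation site before it is released, so the stretch just downstream of a gene is transcribed as well. The base composition of cleavage sites is rich in A and T. The stretches that flank genes also hold interspersed repeats, of which the Alu family is the most numerous short one in primate genomes.

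The sequence under the summits fell into plainly different kinds. The 4 stretches of 100 bases around a summit, read from hg38 on the strand of the gene, are shown because they stand for the strongest 3′ end intervals found in both lists or in the UV list alone (those of the 6 strongest of each kind with the whole interval downstream and the summit outside genes), and for *COL6A1* of the collagen genes. All lie downstream of the 3′ end and outside annotated exons. Capitals mark CG dinucleotides.
TXNRD2, both lists: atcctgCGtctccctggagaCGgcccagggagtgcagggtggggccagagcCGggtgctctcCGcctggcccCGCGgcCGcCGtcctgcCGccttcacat
COL6A1, UV summit: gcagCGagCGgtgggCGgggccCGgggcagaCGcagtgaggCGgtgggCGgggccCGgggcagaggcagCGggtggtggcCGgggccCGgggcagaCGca
WNT7B, UV list alone: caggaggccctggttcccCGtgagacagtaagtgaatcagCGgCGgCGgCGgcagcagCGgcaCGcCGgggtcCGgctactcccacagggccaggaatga
TRIM31, UV list alone: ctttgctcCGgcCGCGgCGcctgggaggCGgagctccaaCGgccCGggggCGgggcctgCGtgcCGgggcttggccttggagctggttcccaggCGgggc

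These stretches lie at chr22:19873621-19873720, chr21:46005963-46006062, chr22:45919197-45919296 and chr6:30102145-30102244, hold between 9 and 12 CG dinucleotides, and have 69% to 83% G and C. Other summits lay on sequence whose letters recur widely in the genome. Copy number was measured as the median, over all words of 14 bases in the 100 bases around a summit, of the times each word occurs on either strand of chromosomes 1 to 22 and X. That median was 18 for *TXNRD2*, 32 for *COL6A1*, 14 for *WNT7B* and 19 for *TRIM31*. It was 12061 for *HMGN1* and 2774 for *DHX57*, found in the no UV list alone, and 77973 for *H3-3B*, found in both. Summits with a median of 1000 or more are called many-copy.

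Many-copy sequence lay under 3′ end summits far more often than across the genome, and more often in the no UV than in the UV list. It held 1266 of the 2146 no UV summits (59.0%; 56.9 to 61.1) and 1046 of the 2022 UV summits (51.7%; 49.5 to 53.9). Of 29112 stretches of 100 bases spaced evenly over the genome, 3833 (13.2%) were many-copy. In the no UV list, 64.7% of intervals in gene bodies were many-copy (gene body meaning more than 2 kb from a TSS, in a gene and not at a 3′ end), and in the UV list 65.4% were. No repeat annotation was used and families were not assigned. Reads from such sequence can align at several places, how the authors treated them for H3.3 is not given in the sources used here, and their part in the counts was not tested.

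The no UV list held slightly more 3′ end intervals than the UV list, within counting error. The order turned with the kind of sequence, and with lists of equal length (ratio 1.07) or a strength limit of 5 (ratio 1.08). With a counting interval that includes 1, the ratio of UV to no UV 3′ end intervals was 0.942 (0.886 to 1.002). It was 0.869 (0.861 to 0.877) over all intervals, 0.787 (0.775 to 0.798) in gene bodies, 0.808 (0.788 to 0.828) outside genes and 1.00 (0.984 to 1.02) within 2 kb of a TSS. Many-copy 3′ end intervals numbered 1266 without UV and 1046 after UV, a ratio of 0.826 (0.761 to 0.897). The other 3′ end intervals numbered 880 and 976, a ratio of 1.11 (1.01 to 1.22), so that the order was turned round. In gene bodies the ratio was below 1 for both kinds, at 0.796 (0.781 to 0.810) for many-copy and 0.770 (0.751 to 0.789) for other sequence. Within classes of G and C content, the ratios for other sequence at 3′ ends and in gene bodies had overlapping counting intervals in each class. They were 0.671 and 0.629 from 45% to 50%, 1.08 and 0.833 from 50% to 55%, and 1.49 and 1.53 at 60% or more. The split by copy number was chosen after the values were seen.

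**Figure D1:**
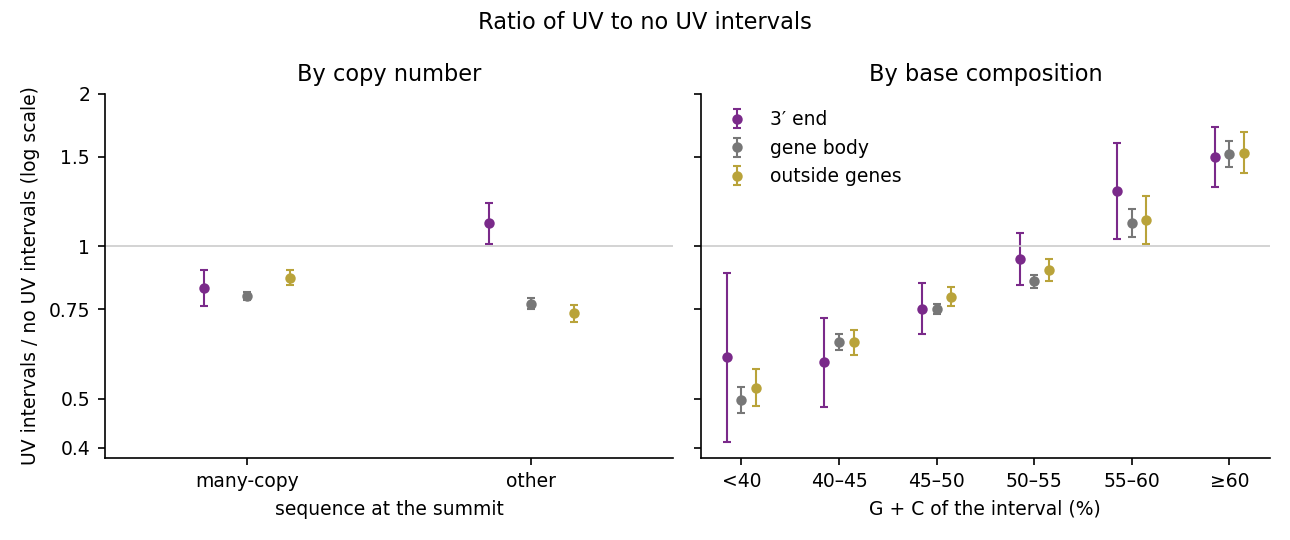
Ratio of the number of UV intervals to the number of no UV intervals (vertical axis, log scale) at 3′ ends, in gene bodies and outside genes, by the copy number of the sequence at the summit (left) and by the G and C content of the interval (right). Points are ratios of counts and bars 95% intervals for counting error; at 3′ ends the ratio is 0.826 for many-copy and 1.11 for other sequence, and it goes from 0.605 under 40% G and C up to a class of 60% or more with 359 no UV and 537 UV intervals.

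Base composition moved with the same counts. The median G and C content of 3′ end intervals was 50.2% without UV and 52.0% after UV, against 48.0% and 49.0% in gene bodies. Intervals with 60% G and C or more numbered 359 without UV and 537 after UV at 3′ ends, a ratio with a counting interval from 1.31 to 1.71, and the ratio in gene bodies was 1.52. Below 50% the order was the other way, with a ratio of 0.605 under 40%, 0.590 from 40% to 45% and 0.753 (0.671 to 0.844) from 45% to 50%. The ratio was 0.943 (0.839 to 1.06) from 50% to 55% and 1.28 (1.03 to 1.60) from 55% to 60%. Only 3 no UV and 5 UV intervals in the class of 60% or more were many-copy. Among intervals that were not many-copy, those with 60% or more G and C made up 40.5% (37.2 to 43.8) of the no UV and 54.5% (51.3 to 57.7) of the UV 3′ end intervals. Given the G and C classes of the no UV 3′ end intervals, gene-body intervals would have had a ratio of 0.911 and intervals outside genes one of 0.941, close to the 0.942 at 3′ ends. This weighting was chosen after the values were seen. In the class of 60% or more, 335 of the 359 no UV intervals overlapped a UV interval, and 322 of the 537 UV intervals overlapped a no UV interval. The base composition of a library and the condition cannot be told apart with 1 library each.

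H3.3 intervals were scarcest close to the 3′ end and frequent just downstream of it. Over the bases more than 2 kb from any TSS, 3.37% were inside a no UV interval from 1000 to 200 bp upstream of the 3′ end and 3.57% inside a UV interval. Within 100 bp of the 3′ end the shares were 2.45% in both lists. From 200 to 1000 bp downstream, 5.36% of bases lay in a no UV and 5.01% in a UV interval, and farther out, from 3000 to 5000 bp, 4.14% and 3.66% did. The 3′ end therefore lay in a dip of coverage in each list, with the higher side downstream. The UV list covered more than the no UV list from 1000 to 200 bp upstream (a ratio of 1.06) and less downstream (0.935 between 200 and 1000 bp). G and C content had a dip at the same place, with 38.5% within 100 bp of the 3′ end and 43.9% from 1000 to 200 bp upstream.

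**Figure D2:**
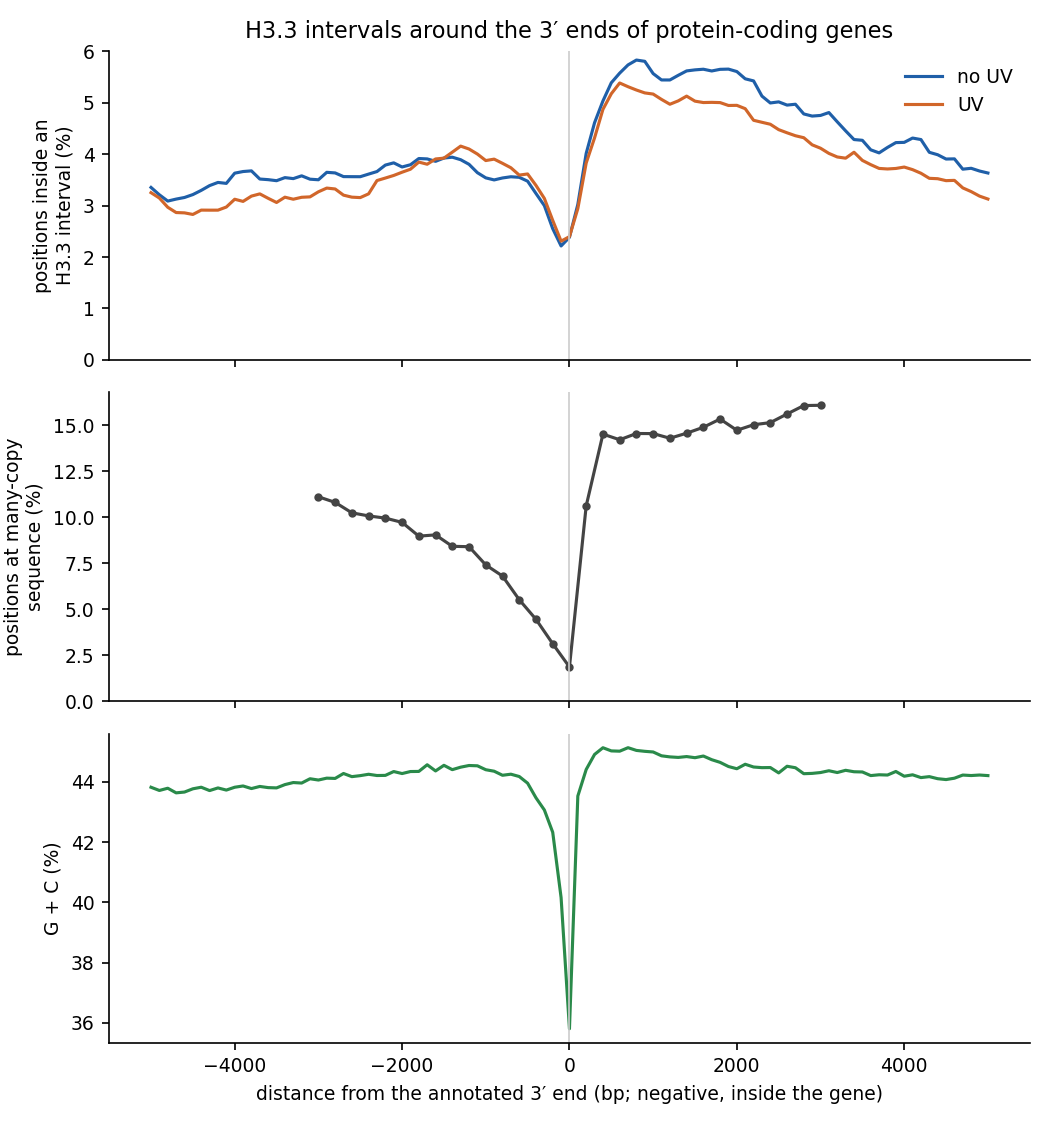
Share of positions inside an H3.3 interval (top), share of positions at many-copy sequence (middle) and G and C content (bottom) by distance from the annotated 3′ end of protein-coding genes, over positions more than 2 kb from any TSS; negative distances lie inside the gene. All of them dip near the 3′ end, where 2.45% of the positions within 100 bp are covered in each list, and the middle panel goes from 1.87% at the end to 13.7% over 200 to 1000 bp downstream.

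Many-copy sequence had a like shape around the 3′ end. It took up 5.44% of the positions between 1000 and 200 bp upstream, 1.87% at the 3′ end and 13.7% between 200 and 1000 bp downstream. Such positions were inside an interval far more often than the rest: in the downstream segment 16.9% of them lay in a no UV interval and 14.2% in a UV interval, against 3.37% and 3.47% of the other positions. A dip and a downstream rise were also seen at positions that were not many-copy. Coverage there was 2.61% (no UV) and 2.92% (UV) upstream, 2.23% and 2.27% at the end, and 3.37% and 3.47% downstream. A position of this kind can lie in an interval whose summit is many-copy, so these values do not separate the kinds of interval. By summit, intervals that were not many-copy numbered 377 upstream and 373 downstream without UV, and 427 and 386 after UV. At many-copy positions the UV list covered less in each segment, with ratios from 0.815 to 0.849. At the other positions its coverage over whole segments was 1.12 times that of the no UV list from 1000 to 200 bp upstream, 1.02 times at the end and 1.03 times from 200 to 1000 bp downstream. Within the last segment it was higher at 600 bp (3.88% against 3.58%) and lower at 800 bp (3.67% against 3.71%) and at 1000 bp.

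**Figure D3:**
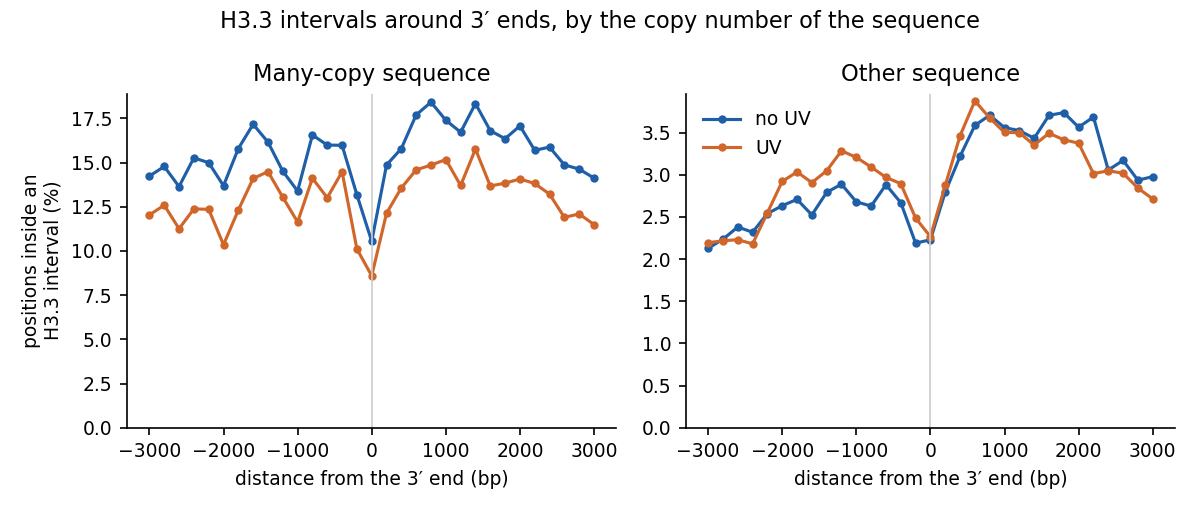
Share of positions inside a no UV or UV interval (vertical axes, which differ between panels) by distance from the 3′ end in bp, at many-copy positions (left) and at other positions (right). On the left the no UV list is above the UV list in every segment given in the text; on the right the UV list is the higher one upstream (2.92% against 2.61%).

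By side, downstream intervals were the most frequent. Without UV, 1168 of the 3′ end intervals (54.4%; 52.3 to 56.6) lay wholly downstream of the 3′ end, 707 (32.9%; 31.0 to 35.0) wholly upstream and 271 (12.6%; 11.3 to 14.1) across it. After UV, 1058 (52.3%; 50.1 to 54.5) lay downstream, 701 (34.7%; 32.6 to 36.8) upstream and 263 (13.0%; 11.6 to 14.6) across. The downstream share was 2.10 percentage points lower after UV (95% interval of the difference −5.16 to 0.96), which is within counting error. The excess of downstream intervals went with many-copy sequence, where 62.8% of no UV and 64.2% of UV intervals lay downstream. Among the other intervals 42.4% (39.1 to 45.7) of no UV and 39.5% (36.5 to 42.7) of UV intervals did, and 42.8% and 43.8% lay upstream, so that neither side led. Summits were few in the last 200 bp of the gene, with 66 no UV and 65 UV summits, against 257 and 206 from 200 to 400 bp downstream.

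By annotation at the summit, 944 no UV and 857 UV (42.4%) 3′ end intervals lay outside genes, 573 (26.7%) and 547 (27.1%) in untranslated or non-coding exon parts, 470 (21.9%) and 414 (20.5%) in introns and 154 (7.18%) and 197 (9.74%) in coding exons. Of these 4 kinds, summits in coding exons alone were more numerous after UV. Of the 154 without UV, 135 (87.7%; 81.4 to 92.4) overlapped a UV interval, and of the 197 after UV, 130 (66.0%; 58.9 to 72.6) overlapped a no UV interval.

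Most 3′ end intervals had a counterpart, meaning an interval of the other list that overlapped by at least 1 bp. Without UV, 1354 of 2146 (63.1%; 61.0 to 65.1) had one, against 57.3% of all no UV intervals and 51.0% of those more than 2 kb from a TSS. After UV, 1339 of 2022 (66.2%; 64.1 to 68.3) had one, against 65.6% of all UV intervals and 64.9% of those more than 2 kb from a TSS. The no UV share was thus above its background, though below the 68.8% of no UV intervals within 2 kb of a TSS. The UV share was near its own background, and 66.7% of UV intervals within 2 kb of a TSS had a counterpart. Which list had the higher share turned with list length and threshold: with the longer list reduced to equal length, 67.1% of no UV and 62.4% of UV 3′ end intervals had a counterpart. In gene bodies the shares were 49.1% and 63.5%. The order differed by kind of sequence at 3′ ends: 60.3% (57.6 to 63.1) of many-copy no UV and 73.9% (71.1 to 76.5) of many-copy UV intervals had a counterpart, while for the others it was 67.0% (63.8 to 70.1) without UV and 58.0% (54.8 to 61.1) after UV. In gene bodies and outside genes the UV share was the higher one for both kinds, with 44.2% and 58.4% for other sequence in gene bodies and 45.3% and 60.8% outside genes.

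Where a counterpart existed, it was nearly the same stretch. The nearest summits of the lists were a median of 46 bp apart (quartiles 20 and 98 bp for the no UV intervals), and 53.4% of the no UV and 53.8% of the UV summits had one within 50 bp. For 1234 of the 1354 no UV intervals the counterpart met the 3′ end rule as well. Intervals with a counterpart were stronger and wider, with a median strength of 7.30 and a width of 554 bp in the no UV list, against 3.73 and 367.5 bp without one. In the UV list the values were 7.89 and 542 bp against 4.30 and 359 bp. Of the intervals without a counterpart, 232 no UV (29.3%) and 215 UV (31.5%) had an interval of the other list within 1 kb of their summit.

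The share with a counterpart rose steeply with strength. When each list was divided into 5 classes of equal size by −log10 q, the share of no UV 3′ end intervals with a counterpart was 35.7% in the weakest class, 55.6% in the middle one and 96.1% in the strongest. For UV intervals these were 43.2%, 63.9% and 93.0%. At like strength, no UV 3′ end intervals had a counterpart more often than those in gene bodies in each class. Gene bodies had 26.6%, 45.4% and 93.6% in the same classes, and the counting intervals overlapped only in the strongest. This was not particular to 3′ ends. No UV intervals within 2 kb of a TSS had higher shares still in each class (38.1%, 59.3% and 97.6% in the same classes), with overlapping counting intervals. Outside genes the no UV shares were below those at 3′ ends, from 28.7% in the weakest class to 95.2% in the strongest. There the counting intervals overlapped those at 3′ ends from the middle class up. At like strength, UV 3′ end intervals were not above gene bodies, with 45.4%, 63.0% and 96.1% in gene bodies in the same classes. Weighted to the strength of the 3′ end intervals, gene bodies would have had 54.7% in the no UV and 68.2% in the UV list. Weighted to the G and C classes of the 3′ end intervals instead, gene bodies would have had 54.2% and 60.1%. UV 3′ end intervals (66.2%) were thus below gene bodies weighted by strength and above those weighted by G and C.

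**Figure D4:**
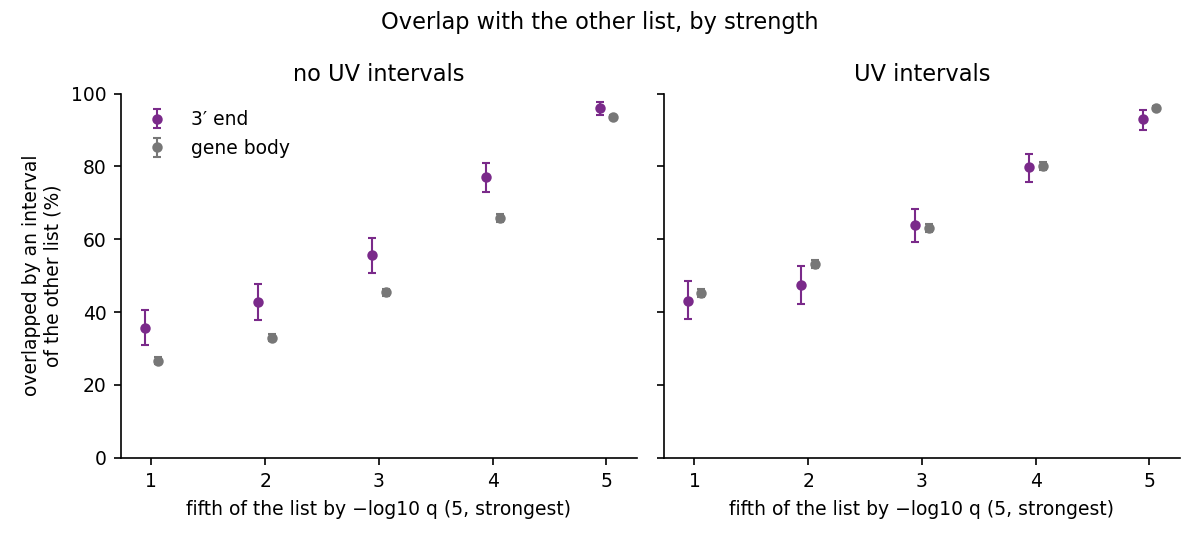
Share of intervals overlapped by an interval of the other list (vertical axis, %) by strength class (5 classes of equal size, ordered by −log10 q), for no UV (left) and UV (right) intervals at 3′ ends and in gene bodies; bars are exact 95% intervals. Shares go from 35.7% to 96.1% for no UV and from 43.2% to 93.0% for UV 3′ end intervals, and the no UV gene-body points lie lower in every class.

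Intervals without a counterpart differed in G and C content between the lists, at 3′ ends and elsewhere. Their many-copy shares differed at 3′ ends and near TSSs, but little in gene bodies. Of the 792 no UV intervals without one, 502 (63.4%; 59.9 to 66.7) were many-copy and 24 (3.03%; 1.95 to 4.48) had 60% G and C or more. Of the 683 UV intervals without one, 273 were many-copy and 215 (31.5%; 28.0 to 35.1) had 60% or more. In gene bodies 307 of 20975 no UV and 1428 of 11851 UV intervals without one had 60% or more, and outside genes 1.72% and 14.4% did. Of the no UV and UV intervals without one, 61.2% and 60.6% were many-copy in gene bodies. These shares were 45.8% and 48.8% outside genes, and 59.4% and 33.4% within 2 kb of a TSS. At 3′ ends, intervals with a counterpart had nearly equal shares, 56.4% and 57.7% many-copy and 24.7% and 24.0% with 60% G and C or more. The contrast was widest among the strongest: of the 50 strongest without a counterpart in each list, 43 no UV and 8 UV intervals were many-copy.

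The genes at these intervals were counted next. Of 19970 protein-coding genes, 16320 had at least 1 base within 1 kb of the 3′ end that was more than 2 kb from any TSS and were eligible. Of these, 1802 (11.0%) had a no UV interval at the 3′ end and 1704 (10.4%) a UV interval. Both lists held one for 1128 genes, only the no UV list for 674 and only the UV list for 576. A gene had up to 3 such intervals without UV and up to 4 after UV, and 313 and 290 genes had more than 1. Near 228 no UV and 226 UV intervals there were 3′ ends of at least 2 genes, and the interval was then counted at the nearest.

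Genes with a 3′ end interval were shorter than the eligible genes. Their median length was 24.7 kb without UV and 23.5 kb after UV, against 32.0 kb over all eligible genes. By length, 10.6% (9.56 to 11.6) of genes under 10 kb, 14.9% (13.9 to 16.0) of those from 10 to 30 kb, 11.4% (10.5 to 12.3) from 30 to 100 kb, 6.75% (5.81 to 7.79) from 100 to 300 kb and 3.39% (2.23 to 4.93) above 300 kb had a no UV interval. UV shares were 10.8%, 14.7%, 9.98%, 5.82% and 3.00%. The share was thus highest from 10 to 30 kb in each list and fell in longer genes. The distance rule left genes under 10 kb fewer bases near the 3′ end, a median of 1819 against 2001 in each longer class. The part of this in their lower share was not tested.

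**Figure D5:**
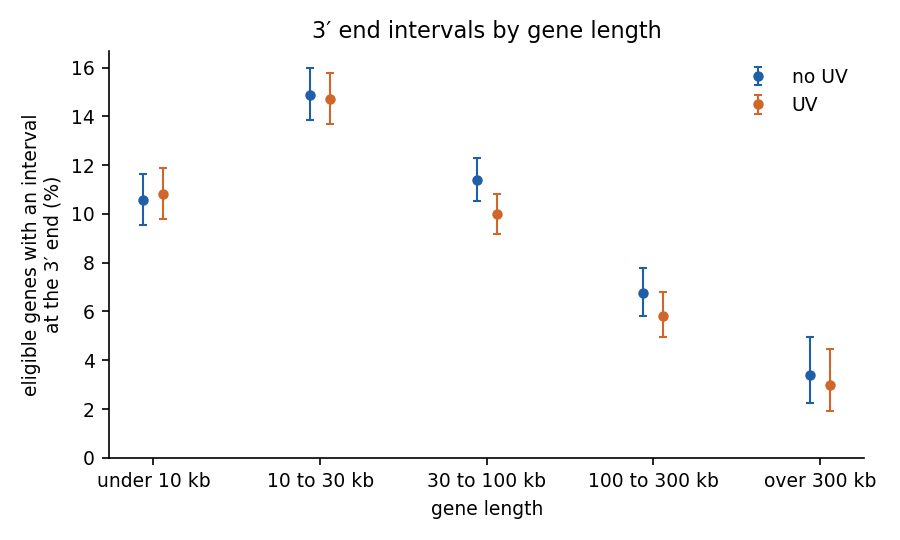
Share of eligible protein-coding genes with an H3.3 interval at the 3′ end (vertical axis, %) by gene length class, for the no UV and UV lists; bars are exact 95% intervals. The highest shares are 14.9% and 14.7% at 10 to 30 kb, and the lowest 3.39% and 3.00% above 300 kb.

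Between the lists, length differed little. Counted per interval, the median gene length was 24.4 kb without UV and 23.2 kb after UV, a ratio of 0.953 (95% interval 0.886 to 1.03). The number of UV intervals was below that of no UV intervals at genes from 30 to 100 kb (592 against 690, a ratio of 0.858; 0.767 to 0.959) and near it under 10 kb (446 against 437, a ratio of 1.02; 0.892 to 1.17). No UV intervals without a counterpart lay at longer genes (median 28.9 kb) than those with one (22.4 kb). The share of no UV intervals with a counterpart was 71.4% (66.9 to 75.6) under 10 kb and 57.5% (53.8 to 61.3) from 30 to 100 kb, while UV shares were 66.8% and 66.2%.

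A 3′ end interval went with an interval at the start of the same gene. Of genes with a no UV 3′ end interval, 76.5% (74.4 to 78.4) had a no UV interval within 1 kb of an own TSS, against 42.9% (42.1 to 43.7) of the other eligible genes. After UV it was 80.8% (78.9 to 82.7) against 49.4% (48.6 to 50.2). Seen from the start, 18.1% of genes with an own TSS interval and 4.86% of genes without had a 3′ end interval in the no UV list, and 16.0% and 4.23% in the UV list. The relation was present in each length class up to 300 kb, such as 73.0% against 26.7% under 10 kb without UV, while above 300 kb, with 26 genes, 57.7% (36.9 to 76.6) against 45.7% was within counting error. It was alike for many-copy (75.2%) and other (78.9%) 3′ end intervals. Within 200 to 1000 bp downstream of the 3′ end, no UV intervals covered 9.06% of the bases at genes with an own TSS interval and 2.19% at genes without, and UV intervals covered 7.98% and 1.79%. A like contrast was present away from the 3′ end, with 5.69% and 1.60% for no UV intervals from 5000 to 3000 bp upstream and 7.07% and 1.78% from 3000 to 5000 bp downstream.

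The strongest 3′ end intervals found in both lists lay at genes of varied function and at sequence of few copies. The strongest was in *UBE2S*, a ubiquitin-conjugating enzyme of the anaphase-promoting complex, at chr19:55400729-55402041 in the gene and upstream of its 3′ end. This interval lay 2103 bp from the nearest TSS, just past the 2 kb limit, with its summit 1871 bp from the 3′ end. It was enriched 30.5-fold with a strength of 214.6 in the no UV list, and 26.5-fold with 191.4 in the UV list, with summits 4 bp apart. Next by strength in the no UV list came *PRR7* (94.5), *C1QL4* (90.1), *MYH9* (79.3), *ARHGAP35* (65.8) and *TXNRD2* (59.0), given as −log10 q. *MYH9* encodes the heavy chain of non-muscle myosin IIA, *ARHGAP35* a GTPase-activating protein and *TXNRD2* the mitochondrial thioredoxin reductase. All of these 6 had an own TSS interval in both lists and a copy number between 6 and 22. *TXNRD2* was the one with its summit outside genes, 1846 bp downstream of the 3′ end, in an interval of 2042 bp at chr22:19872823-19874864.

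The 6 strongest no UV intervals without a counterpart were many-copy in each case. They included those at *KLHL10* (−log10 q 21.3), *PPP2CA* (17.7), *IMMT* (16.5), *HMGN1* (13.97) and *DHX57* (13.4). *PPP2CA* encodes the catalytic subunit of protein phosphatase 2A, *IMMT* a protein of the mitochondrial inner membrane and *HMGN1* a protein that binds nucleosomes. Their copy numbers ran from 2774 (*DHX57*) to 74060 (*PPP2CA*). The *HMGN1* interval had its summit 190 bp downstream of the 3′ end and the nearest UV interval 584 bp from the summit. At *DHX57* the nearest UV interval was 11493 bp away.

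The 6 strongest UV intervals without a counterpart had few copies. They lay at *MED26* (−log10 q 31.9), *GRIN2C* (25.1), *WNT7B* (23.6), *TRIM31* (22.96), *MARK2* (22.9) and *EFNA2* (22.5), and their copy numbers ran from 8 (*GRIN2C*) to 82 (*MARK2*). *MED26* encodes a subunit of Mediator, *GRIN2C* a subunit of the NMDA receptor, *WNT7B* a Wnt ligand, *TRIM31* a ubiquitin ligase, *MARK2* a kinase that acts on microtubule-binding proteins and *EFNA2* an ephrin ligand. The *WNT7B* interval was chr22:45918921-45919491, with its summit 1119 bp downstream of the 3′ end, 66.2% G and C, and the nearest no UV interval 3536 bp away. The *GRIN2C* interval, chr17:74842710-74843700, lay in a coding exon, had 74.4% G and C and was 16212 bp from any no UV interval. Of the 6, *EFNA2* alone had less than 60% G and C in its interval (47.8%).

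Collagen genes, which code for the main fibrous proteins that fibroblasts secrete, had 3′ end intervals about as often as other genes, and these were not many-copy. Of 42 eligible collagen genes, 5 (11.9%) had a no UV interval, 6 (14.3%) a UV interval and 4 both, near the 11.0% and 10.4% of all eligible genes. *COL6A1* had a weak no UV interval at chr21:46005598-46006331, enriched 2.12-fold with a strength of 1.80, above 5.28% of its list. The overlapping UV interval, chr21:46005588-46006587, was enriched 8.47-fold with a strength of 34.6, above 94.8% of its list. *COL5A1* had a like order, from above 11.7% of the no UV list (fold enrichment 2.74) to above 64.7% of the UV list (4.75). *COL11A2* had the other order, from above 84.5% (6.64) to above 46.1% (3.48), and *COL8A2* was among the strongest in both lists (9.30 and 7.22). *COL5A2* had an interval in the no UV list alone, at 35.8% G and C, and *COL6A2* and *COL12A1* had one in the UV list alone, at 68.5% and 62.0%.

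Immediate early genes, which respond to signals and stress within minutes, had 3′ end intervals at 4 of 17 eligible genes (23.5%) without UV and 3 (17.6%) after UV, beside 11.0% and 10.4% of all eligible genes. *FOSL1* and *FOSL2*, subunits of AP-1, had no UV intervals that overlapped UV ones. The *FOSL1* interval spanned 2724 bp with 5 summits and a −log10 q of 37.0 without UV, and its UV counterpart did not meet the distance rule. *FOSL2* had a 3′ end interval in both lists, just over the limit for many-copy sequence (1431 and 1334). *DUSP1*, a phosphatase of MAP kinases, had a downstream many-copy interval in both lists, with summits 668 bp (no UV) and 638 bp (UV) from the 3′ end, and an upstream one in the UV list alone. *DUSP5*, another such phosphatase, had a weak interval in the UV list alone, above 1.11% of that list. *MYC* had 2 intervals in its untranslated exon part without UV, with strengths of 5.78 and 11.8, and the nearest UV intervals lay 2915 and 3458 bp from their summits.

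Genes of nucleotide excision repair, the pathway that removes UV lesions, had a 3′ end interval at 2 of 11 eligible genes (18.2%) in each list, beside 11.0% and 10.4% of all eligible genes. All were genes of TFIIH, the helicase complex that opens DNA in transcription and repair. *GTF2H1* had one in both lists, above 60.9% of the no UV list and 3.19% of the UV list. *ERCC2* had one without UV (−log10 q 5.15) whose UV counterpart was counted at the nearer 3′ end of another gene, and *ERCC3* had a many-copy one after UV (4.76). Of the 8 eligible genes for H3.3 and its chaperones, 1 (12.5%) had a 3′ end interval in each list, near the 11.0% and 10.4% of all eligible genes. This was *H3-3B*, 1 of the genes that encode H3.3 itself. Its summits lay 370 bp downstream of the 3′ end without UV and 354 bp after UV, at many-copy sequence, with strengths of 21.8 and 16.4.

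Ribosomal protein genes had 3′ end intervals more often than most. Of 46 eligible genes, taken by full symbol, 20 had a no UV interval, 18 a UV interval and 14 both, that is 43.5% and 39.1% against 11.0% and 10.4% of all eligible genes. Their median length was 7.09 kb. By a wider symbol match, which also took *RPS6KA4* (a kinase), *RPS19BP1*, paralogs such as *RPS27L* and a readthrough record, it was 24 and 23 of 65. The full-symbol list was chosen after the values were seen. *RPL19*, of the large subunit, had an interval across its 3′ end in both lists, at chr17:39204347-39205099 (−log10 q 30.9) and chr17:39204524-39206952 (16.2). *RPS14*, of the small subunit, had one across its end in both (26.2 and 13.4), and *RPL37* had 3 intervals without UV and 2 after UV. Many-copy summits made up 18 of the 29 no UV and 15 of the 24 UV intervals at these genes, beside 59.0% and 51.7% of all 3′ end summits. Ribosomal protein genes have processed copies elsewhere in the genome, so reads from their exons can align at several places, and the part of this was not tested.

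Zinc finger genes named ZNF, many of which encode DNA-binding repressors, had 3′ end intervals at 55 of 447 eligible genes (12.3%) without UV and 39 (8.72%) after UV, with 31 in both, near the 11.0% and 10.4% of all eligible genes. Of their 70 no UV intervals 37 had a counterpart and of their 48 UV intervals 33 had one. Beside these stand 63.1% and 66.2% of all 3′ end intervals, and 57.3% and 65.6% of all intervals. Many-copy summits were 38 of the 70 and 19 of the 48, and the other summits 32 and 29. Among genes for extracellular matrix and adhesion, 4 of 19 (21.1%) had an interval without UV and 3 (15.8%) after UV, beside 11.0% and 10.4% of all eligible genes. *FN1* (fibronectin) and *SPARC* were among those with one in both lists, and *LAMC1* (a laminin chain) in the no UV list alone.

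Genes of the actin cytoskeleton and targets of TGF-β or YAP had an interval at 4 of 17 eligible genes (23.5%) without UV and at 6 (35.3%) after UV, beside 11.0% and 10.4% of all eligible genes. *MYH9*, *ACTN1* (alpha-actinin) and *MYL9* (a myosin light chain) had one in both lists, *CCN1* in the no UV list alone, and *FLNA* (filamin A), *SMAD3* and *SMAD7* in the UV list alone. Those of *CCN1* and *FLNA* overlapped an interval of the other list that did not meet the 3′ end rule. By number of intervals over both lists, *NDUFAF1*, *VASN* and *PLEKHG2* were the first of 6 genes with 6 each. *NDUFAF1*, an assembly factor of respiratory complex I, had a downstream, an across and an upstream interval in each list, all of them many-copy. *VASN*, a membrane protein that binds TGF-β, had 2 intervals without UV and 4 after UV, none many-copy. *PLEKHG2*, a guanine nucleotide exchange factor, had 3 in each list, all many-copy, and the one across its 3′ end was above 29.3% of the no UV list and 83.8% of the UV list.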

How the data were processed

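H3.3 ChIP-seq peak lists of 1 no UV and 1 UV library were analysed; input libraries were not analysed here. According to the methods and the submitters' processing notes, the authors used Trimmomatic 3.36 for trimming, BWA 0.7.12 for alignment to hg38 and Biobambam2 for removal of duplicates. The notes name MACS 1.4.2, but the deposited files have the layout of its successor; the version, control and threshold used for H3.3 are not given in the sources used here. The authors deposited, for each summit, a score (10 times the −log10 q), a ratio, that is the fold enrichment, and the −log10 of both p and q. These values depend on depth, which is unknown here since the lists carry no read numbers.

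Rows with the same interval were counted once, with the values of the strongest summit. Chromosome lengths were checked against hg38. Genes, 3′ ends and TSSs (218307 positions of 62062 genes) came from GENCODE release 44. Some named genes and sequences are not reported here. Members and gene lists were chosen with earlier results of these data known. Genes named in the text are the 6 strongest no UV intervals with a counterpart, the 6 strongest in each list without, the 3 genes with most intervals, and every gene of the collagen, immediate early, repair and H3.3 lists with an interval; genes of the remaining lists were named after their values were seen. Copy numbers, the weighting by G and C or strength and the full-symbol ribosomal list were added after the data were seen. Alternatives were windows of 500 bp and 2 kb, summit distances, 5 kb from TSSs, a strength limit (−log10 q) of 3 or 5, equal list lengths, an overlap of 50%, all transcript ends, each summit counted, and 3′ ends with no other gene within 2 kb. Selection, side, gene and overlap were tested on simulated data: all 900 intervals planted at 3′ ends were found, and 0 had a wrong side or gene. They were planted only at 3′ ends far from other protein-coding 3′ ends and from TSSs, so the choice among several near ends was not tested. The software was Python 3.11.15 with scipy 1.17.1, pandas 2.3.3, numpy 2.4.6 and, for plots, matplotlib 3.10.9.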

Additional observations from a re-analysis of the deposited data

How the results depend on the processing

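Each value was recomputed under the alternatives, and a value within the 95% counting interval of the reported one was taken as unmoved. That held for 39 of 52 values under the alternatives listed first, and for all values of the downstream share and of gene length among them. The ratio of UV to no UV 3′ end intervals became 1.07 with lists of equal length and 1.08 for strengths (−log10 q) from 5 up, and 0.999 (1713 UV and 1714 no UV intervals) from 3 up. The share of no UV intervals with a counterpart became 60.9% with a window of 2 kb, 58.3% at 5 kb from TSSs, 58.6% with all transcript ends, 68.5% with each summit counted, 67.1% with equal lists and 67.6% for strengths from 5 up. For UV intervals it became 63.5% with all transcript ends, 70.6% with each summit counted, 62.4% with equal lists, and 63.9% and 61.9% for strengths from 3 and 5 up. Hence with equal lists, or strengths from 3 (65.1% without UV) or 5 up, the no UV share was the higher one. With many-copy summits left out, chosen after seeing the data, the ratio was 1.11 and the shares 67.0% (no UV) and 58.0% (UV). With many-copy summits alone they were 0.826, 60.3% and 73.9%, and the downstream share was 1.45 percentage points higher after UV, against 2.84 lower with them left out. The cause of these moves was not tested. With 1 library per condition no replicate could be left out. No paired analysis was possible because each condition has 1 library.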

Other observations

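The letters of an AP-1 site were rarer at 3′ end intervals than in gene bodies, and about as rare as within 2 kb of a TSS. In the 200 bp around the summit, both strands searched, the AP-1 letters TGANTCA were present in 3.17% of no UV and 2.92% (2.23 to 3.75) of UV 3′ end intervals, against 4.61% and 4.29% in gene bodies and 3.296% and 2.88% within 2 kb of a TSS. The TEAD letters GGAATG were present in 6.24% and 6.03%, against 6.24% and 5.32%. The CTCF core AGGNGGC was present in 32.9% and 31.7%, against 28.2% and 29.8% in gene bodies and 33.2% and 34.2% within 2 kb of a TSS. For the UV list the counting intervals at 3′ ends (29.6 to 33.7) and in gene bodies (29.3 to 30.3) overlapped. The polyadenylation signal AATAAA lay in the last 50 bases of 60.8% of the eligible genes, and of 60.4% of those with a no UV and 60.5% of those with a UV 3′ end interval. A match is a string of letters and does not show binding.

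Across the 23 chromosomes the ratio of UV to no UV 3′ end intervals ran from 0.785 to 1.47. It was above the ratio of all intervals more than 2 kb from a TSS on 22 of them, and there were more UV than no UV 3′ end intervals on 10. Of 12 eligible p53 target genes, 2 had a no UV interval (*MDM2* and *PPM1D*, with 1 and 2 intervals downstream) and 1 a UV interval (*SESN2*), with 0 in both, near the 11.0% and 10.4% of all eligible genes. *PPM1D* encodes a phosphatase that acts on p53, and *MDM2* the ubiquitin ligase that limits it.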
